A study of Mus musculus with 2 samples.

Results

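De novo lipogenesis is the building of fatty acids from acetyl-CoA, and 10 of its genes were followed here, of 37315 genes in the count tables. They were chosen by symbol: the acetyl-CoA sources Acly and Acss2, the acetyl-CoA carboxylases Acaca and Acacb, fatty acid synthase Fasn, the NADPH source Me1, the transcription factor genes Srebf1 (SREBP1) and Mlxipl (ChREBP), and Thrsp and Pnpla3, which are known as targets of these factors. All 10 were found once each in both tables, and all 10 passed the minimum of 1 CPM (reads per 1000000 counted, after scaling) that was set on the mean of both libraries. Fat of 2 groups of mice was sequenced, with 1 poly(A) RNA library per group: vehicle-treated and entacapone-treated male C57BL/6 mice, both 23 weeks old and both made obese by a high-fat diet. The tissue is labelled as white adipose tissue, and the series describes it as the inguinal depot. Entacapone is a drug for Parkinson disease that inhibits catechol-O-methyltransferase and is also known to inhibit the RNA demethylase FTO. The sources used here do not give the dose, the duration or the number of mice behind a library. Since a group is a single library, differences have no replicate error and no test: each is one between these 2 libraries, and each interval is an exact 95% interval that covers counting error only.

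In the cytosol of an adipocyte, ATP citrate lyase cuts citrate exported from mitochondria into acetyl-CoA, and acetyl-CoA synthetase makes it from acetate. Acetyl-CoA carboxylase turns acetyl-CoA into malonyl-CoA, which fatty acid synthase joins into palmitate at the expense of NADPH. SREBP1 acts after insulin and sterol signals and ChREBP after glucose metabolites, and both bind the promoters of these enzyme genes. White fat of mice is known to make fatty acids in this way, and a high-fat diet is known to lower the pathway there.

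The members went both ways. The carboxylase genes Acaca and Acacb were higher in the entacapone library, by just under 1.5-fold (log2 0.58) and by 1.43-fold (log2 0.52). Srebf1 was 1.65-fold lower, Acly 1.35-fold lower and Acss2 1.33-fold lower, and Fasn, the most abundant member in CPM, stood almost level at 1.05-fold. Beyond counting error, 3 of the 10 were higher, 6 were lower and 1, Pnpla3, was not resolved. Pnpla3 counted as lower too, which makes 7, with total counts, DESeq2 size factors, centring on adipocyte markers or removal of a length and GC trend. Over all 13361 genes of at least 1 CPM, 20.2% were higher and 21.1% lower by the same rule. The members are abundant, and among the 3672 genes of at least 50 CPM the shares were 37.8% higher and 26.2% lower. The members' median log2 ratio was -0.17, beside 0.00 over all 13361 genes and 0.04 over the 3672. By the limit of 1.5-fold, 0 members were higher and 1, Srebf1, was lower, against 4.16% and 7.9% of all genes; at a lower limit of 0.32 on the log2 scale, 2 were higher and 3 lower, against 9.38% and 14.1%. Acaca lay just under the 1.5-fold limit, and its call turned with the scaling of the libraries.

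**Figure D1:**
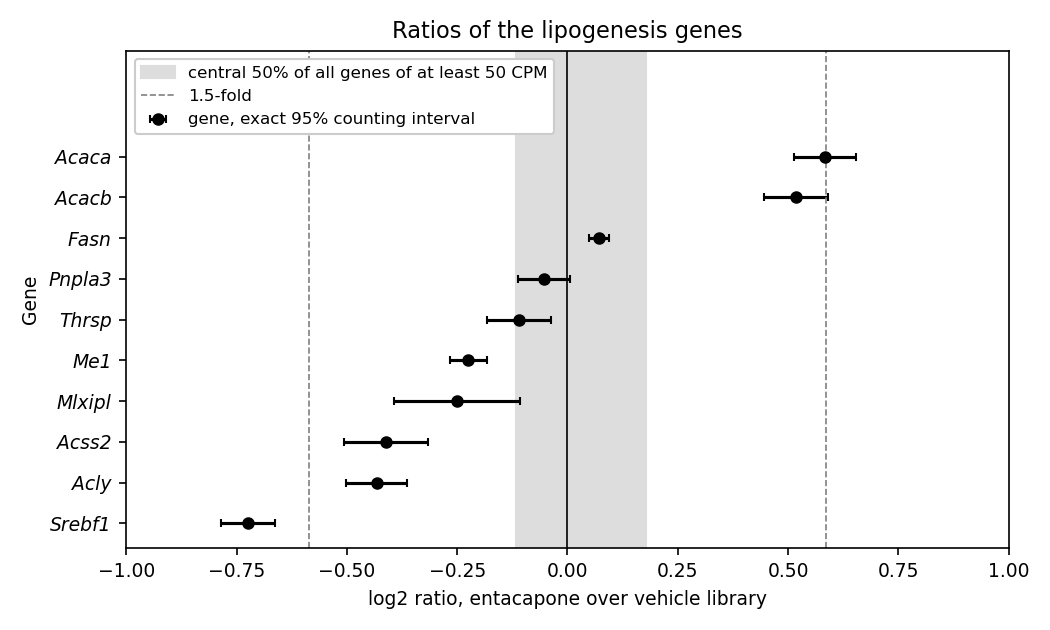
Log2 ratio (entacapone over vehicle library) of each of the 10 genes, with exact 95% counting intervals. The grey band holds the central 50% of all genes of at least 50 CPM (-0.12 to 0.18) and dashed lines mark 1.5-fold; Acaca and Acacb lie to the right of the band, Fasn within it, and Srebf1, at -0.72, farthest to the left.

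Promoter windows are shown for Srebf1, Acly and Acss2, which were lower, and for Fasn, which was nearly level, since these genes are served by the same factors. Each is the 250 bases before a RefSeq start (GRCm38.p6), on the strand of the gene. The Srebf1 window, chr11:60210472-60210721 (minus strand), belongs to the most downstream of its 3 RefSeq starts, 12110 bases downstream of the gene start in GENCODE M21. The others are chr11:100528001-100528250 (minus strand), chr2:155517793-155518042 (plus strand) and chr11:120824548-120824797 (minus strand). Capitals mark matches on either strand to the GC box GGGCGG, to CCAAT, and to TAGTAACCCCG, the longest run of letters that the Srebf1 and Fasn windows share.
Srebf1: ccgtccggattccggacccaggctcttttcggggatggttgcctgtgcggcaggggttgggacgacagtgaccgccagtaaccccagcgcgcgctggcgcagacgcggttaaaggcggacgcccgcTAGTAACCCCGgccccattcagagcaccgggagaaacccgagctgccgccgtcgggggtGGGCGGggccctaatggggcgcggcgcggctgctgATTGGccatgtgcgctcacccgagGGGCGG
Acly: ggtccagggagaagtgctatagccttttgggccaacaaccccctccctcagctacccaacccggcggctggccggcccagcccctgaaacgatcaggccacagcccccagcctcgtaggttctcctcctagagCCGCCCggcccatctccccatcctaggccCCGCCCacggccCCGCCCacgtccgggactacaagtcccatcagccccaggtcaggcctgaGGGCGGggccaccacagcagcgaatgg
Acss2: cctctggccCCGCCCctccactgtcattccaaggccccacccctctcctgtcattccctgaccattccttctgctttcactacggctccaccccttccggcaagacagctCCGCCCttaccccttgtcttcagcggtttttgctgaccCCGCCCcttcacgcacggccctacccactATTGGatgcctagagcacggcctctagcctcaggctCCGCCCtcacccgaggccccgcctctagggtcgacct
Fasn: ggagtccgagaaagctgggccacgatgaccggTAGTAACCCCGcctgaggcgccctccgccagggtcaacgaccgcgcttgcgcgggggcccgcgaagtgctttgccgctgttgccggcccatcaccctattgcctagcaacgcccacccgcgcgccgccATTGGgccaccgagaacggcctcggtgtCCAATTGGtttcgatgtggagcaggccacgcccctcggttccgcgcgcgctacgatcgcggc
The Acly and Acss2 windows held 4 GC boxes each, the Srebf1 window held 2, and the Fasn window held 0 but had 3 matches to CCAAT. Of the Srebf1 windows not shown, 1 held 0 GC boxes and 1 CCAAT match, and 1 held 2 GC boxes and 0 CCAAT matches. Among the other members, the window of Thrsp, which was also lower, held 0 GC boxes. That of Pnpla3, which was not resolved, held 2. The Me1 windows held 3 and 0 and the Mlxipl windows 0 and 2, and both genes were lower. The Acaca and Acacb windows held 0 each, and both genes were higher. The shared run of 11 letters lies 124 bases before the Srebf1 start and 218 bases before the Fasn start. It occurs in 0.0152% of 32841 windows of this length, but was searched because these windows share it. It holds letters known from the sites of LXR, the oxysterol receptor that activates both genes. GC boxes occur in 32.7% and CCAAT in 33.9% of the windows. The 10 genes had 14 windows in all, with a GC box in 7 and CCAAT in 9. A strict sterol regulatory element, TCACNCCAC, was matched once, in an Mlxipl window, against 1.05% of all windows. The E-box CACGTG was matched in the other Mlxipl window, against 6.02%. The Acaca and Acacb windows are not shown because their RefSeq starts lie 65766 and 18983 bases downstream of the gene starts in GENCODE M21. The Srebf1 start shown also lies downstream of its gene start, but by less (12110 bases). The Srebf1 window directly before the gene start, with 0 GC boxes and 1 CCAAT match, is among those not shown. The run shared with Fasn was sought from the Srebf1 window shown only. Matches of letters describe the windows only.

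The acetyl-CoA sources were both lower. Acly (chromosome 11, 100476353 to 100528000, GRCm38), which encodes ATP citrate lyase, had 4232 reads (306 CPM) in the vehicle and 2906 reads (227 CPM) in the entacapone library, a log2 ratio of -0.43 (-0.50 to -0.36). Acss2 (chromosome 2, 155517948 to 155585724), the cytosolic and nuclear acetyl-CoA synthetase, had 2205 reads (160 CPM) and 1537 reads (120 CPM), a log2 ratio of -0.41 (-0.51 to -0.32). Their ratio to each other was almost the same in both libraries: the read ratio of Acss2 to Acly in the entacapone library was 1.02 times that in the vehicle library (0.937 to 1.10). Slc25a1, the mitochondrial carrier that exports the citrate Acly uses, was lower too, at 448 against 565 CPM (-0.33, -0.38 to -0.29). Of the 9 genes listed for acetyl-CoA and citrate supply, no other gene had an interval below a ratio of 1. The insulin-responsive glucose transporter Slc2a4 (0.22, 0.15 to 0.30) and the pyruvate dehydrogenase subunit Pdhb (0.09) were higher, and the list's median was 0.06. The paralogs Acss1 and Acss3, which encode mitochondrial short-chain acyl-CoA synthetases, were within counting error, at 12.3 against 11.9 CPM and 104 against 99.3 CPM. Exons of Acss2 overlap those of Gss by 395 bases on the other strand; Gss had 352 vehicle and 381 entacapone reads, and the library kit does not mark strand.

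The carboxylases stood on the other side. Acaca (chromosome 11, 84129672 to 84401651) encodes the cytosolic enzyme that makes malonyl-CoA for synthesis. It had 2751 reads (199 CPM) in the vehicle and 3820 reads (298 CPM) in the entacapone library, a log2 ratio of 0.58 (0.51 to 0.65). Acacb (chromosome 5, 114146535 to 114250761) encodes the form held at the mitochondrial outer membrane, whose malonyl-CoA is known to inhibit fatty acid entry through CPT1. It had 2719 reads (197 CPM) and 3606 reads (282 CPM), a log2 ratio of 0.52 (0.45 to 0.59). The ratio of Acacb to Acaca differed between the libraries by less than counting error (0.955 times, 0.891 to 1.02). Against Acly the divergence was wider than for either gene alone, and such ratios within a library do not depend on scaling: Acaca over Acly was 2.02 times as large in the entacapone library (1.89 to 2.16), and Acacb over Acly 1.93 times (1.80 to 2.07). Against Fasn the factors were 1.43 (1.36 to 1.502) for Acaca and 1.36 (1.29 to 1.44) for Acacb. Acacb is also abundant in skeletal muscle, and 9 of 10 measured muscle markers were beyond counting error on the higher side, with a summed level of 2103 against 1365 CPM; the part of muscle RNA in the Acacb value was not tested. Sebaceous glands and mammary epithelium make fatty acids as well. Sebaceous markers summed to 63.8 against 28.1 CPM, with Awat2 and Mc5r higher and Scd3 and Soat1 within counting error. The mammary and skin epithelium markers summed to 81.3 against 21.1 CPM. Of these, the keratin genes Krt5, Krt14 and Krt17 were higher, while Krt8 and Krt18 were within counting error. The milk genes were at or near 0 in both libraries. Csn2 and Wap had 0 reads, Lalba 0 vehicle reads and 1 entacapone read, and Csn3 had 3 vehicle and 6 entacapone reads. The part of these tissues in the Acaca value was not tested.

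Fatty acid synthase was the level point of the pathway. Fasn (chromosome 11, 120805846 to 120824547) had 31563 reads (2285 CPM) in the vehicle and 30719 reads (2400 CPM) in the entacapone library. The log2 ratio of 0.07 (0.05 to 0.09) excluded a ratio of 1 at this depth, but the difference was small. Fasn took 45.5% of the reads of the 10 genes in the vehicle and 49.2% in the entacapone library. The 10 genes together held 5027 and 4880 CPM, and the other 9 without Fasn held 2742 and 2480 CPM, a ratio of 0.904 (0.891 to 0.918).

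**Figure D2:**
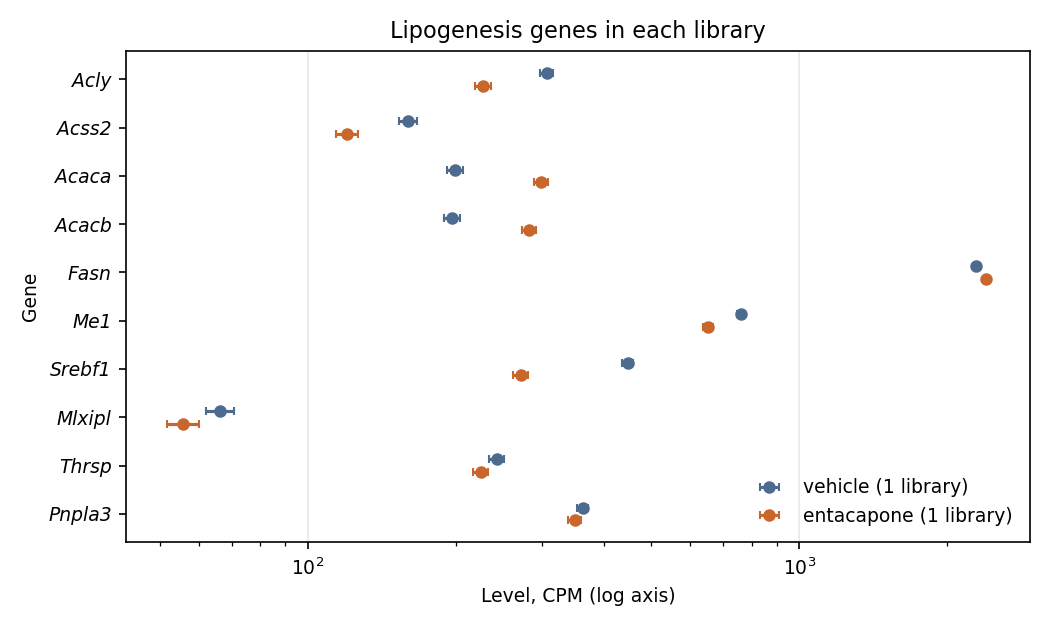
Level of each gene in CPM (log axis) in the vehicle and the entacapone library, 1 library each, with exact 95% counting intervals; genes run from acetyl-CoA sources to regulators and targets. Acaca and Acacb are the genes whose entacapone point lies clearly to the right, while Acly, Acss2, Me1, Srebf1 and Mlxipl lie to the left.

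Genes listed for NADPH supply went both ways, but none of the cytosolic sources Me1, Idh1, Pgd and G6pdx was higher. Me1 (chromosome 9, 86581371 to 86695953), the cytosolic malic enzyme that regenerates NADPH from malate, had 10525 reads (762 CPM) in the vehicle and 8345 reads (652 CPM) in the entacapone library, a log2 ratio of -0.22 (-0.27 to -0.18). Idh1, the cytosolic isocitrate dehydrogenase, was the lowest of the 12 listed NADPH genes at 159 against 226 CPM (-0.51, -0.59 to -0.43), and Pgd of the pentose phosphate pathway was at -0.28 (-0.33 to -0.23). G6pdx, which opens that pathway in the cytosol, was within counting error (326 against 333 CPM). H6pd, its counterpart in the endoplasmic reticulum, was the highest at 884 against 562 CPM (0.65, 0.61 to 0.69), and Tkt, the transketolase of the same pathway, was at 0.59 (0.55 to 0.64). Counting error was exceeded upward by 4 of the 12 (H6pd, Tkt, Idh2 and Taldo1) and downward by 2 (Idh1 and Pgd), and the median was 0.03. The paralogs Me2 and Me3, which encode mitochondrial malic enzymes, were within counting error. Per kb of exon Me1 stood far above them: 198 against 2.77 (Me2) and 0.267 (Me3) CPM per kb in the vehicle library.

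Srebf1 had the lowest ratio of the 10. The gene (chromosome 11, 60199089 to 60222581) yields SREBP-1a and SREBP-1c, which gene counts do not separate. It had 6182 reads (448 CPM) in the vehicle and 3468 reads (271 CPM) in the entacapone library, a log2 ratio of -0.72 (-0.78 to -0.66). Its paralog Srebf2, the main factor of cholesterol synthesis genes, had 734 and 668 reads and was within counting error at 52.2 against 53.1 CPM. The ratio of Srebf1 to Srebf2 was therefore 1.62 times larger in the vehicle library (1.45 to 1.82). Exons of Srebf1 overlap 109 bases of Rai1 on the other strand, which had 457 and 448 reads.

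Genes that process and transcribe SREBP mostly stood level or slightly higher, with 1 exception. Insig1, which holds the SREBP and SCAP complex in the endoplasmic reticulum and is itself a known SREBP target, was 2.79-fold lower at 197 against 550 CPM (-1.48, -1.54 to -1.41). Insig2, its paralog, was slightly higher at 73.4 against 62.5 CPM (0.23, 0.10 to 0.37), so that the Insig1 to Insig2 ratio was 3.27 times larger in the vehicle library (2.95 to 3.63). Scap, the escort of SREBP, was at 0.19 (0.04 to 0.33), and Lpin1, which restrains nuclear SREBP, was highest of the list at 0.26 (0.21 to 0.31). Nr1h3, which encodes LXR alpha, stood at 133 against 134 CPM. Counting error was exceeded upward by 5 of the 11 genes (3 with total counts) and downward by Insig1, and the median was 0.15. By the same rule 20.2% of all 13361 genes were higher and 21.1% lower. Among genes of at least 50 CPM the shares were 37.8% and 26.2%. The counts of this and the other lists are to be read beside these shares. In the list of 15 genes of cholesterol synthesis and uptake, known as SREBP2 targets, 14 were measured; 7 had intervals below a ratio of 1 and 2 above it (median -0.29). Hmgcs1, the synthase before the rate-limiting reductase, was lowest (-1.33, -1.41 to -1.25), and the isomerase gene Idi1 was highest (0.78, 0.64 to 0.93).

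Of the 10 members, the ChREBP gene had the fewest reads in both libraries. Mlxipl (chromosome 5, 135089890 to 135138382) had 917 reads (66.4 CPM) in the vehicle and 714 reads (55.8 CPM) in the entacapone library, a log2 ratio of -0.25 (-0.39 to -0.11). Counts do not separate its alpha and beta forms. Mlx, the obligate partner of ChREBP, was also lower at 14.8 against 18.5 CPM (-0.31, -0.59 to -0.04), whereas the paralog Mlxip (MondoA) was higher at 80.4 against 57.5 CPM (0.48, 0.35 to 0.62). The ratio of Mlxipl to Mlx differed by less than counting error (1.04 times, 0.846 to 1.29), and that of Mlxipl to Mlxip was 1.66 times larger in the vehicle library (1.45 to 1.90). Txnip, a glucose-responsive target of both ChREBP and MondoA, was the highest of the list at 1933 against 1268 CPM (0.61, 0.58 to 0.64). Klf10, a further known target, was the lowest at 46.0 against 57.9 CPM (-0.33, -0.49 to -0.18), and Arrdc4 was at -0.28. Of the 8 listed, 6 were measured; 2 had intervals above a ratio of 1 and 3 below it (median -0.13).

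The targets Thrsp and Pnpla3 differed little between the libraries. Thrsp (chromosome 7, 97412938 to 97417730), which encodes the lipogenic nuclear protein Spot 14, had 3345 reads (242 CPM) in the vehicle and 2874 reads (225 CPM) in the entacapone library, a log2 ratio of -0.11 (-0.18 to -0.04). Its paralog Mid1ip1 encodes a protein that promotes the polymerization of acetyl-CoA carboxylase. It was lower by more, at 23.4 against 31.1 CPM (-0.41, -0.63 to -0.19). Pnpla3 (chromosome 15, 84167837 to 84187236), which encodes the lipid droplet protein adiponutrin, had 5003 reads (362 CPM) and 4468 reads (349 CPM), and its interval held a ratio of 1 (-0.05, -0.11 to 0.01). That call depended on scaling: with total counts the interval was -0.15 to -0.04, below a ratio of 1. Its paralog Pnpla2, the adipose triglyceride lipase gene, was higher at 5127 against 3848 CPM (0.41, 0.40 to 0.43). Pnpla5 was the highest of that family on few reads, 61 against 28 (1.23, 0.57 to 1.93), and Pnpla6 was the lowest (-0.39); of the 5 measured of 6 listed paralogs, 3 had intervals above a ratio of 1 and 1 below it. The ratio of Pnpla3 to Pnpla2 was 1.38 times larger in the vehicle library (1.33 to 1.44).

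**Figure D3:**
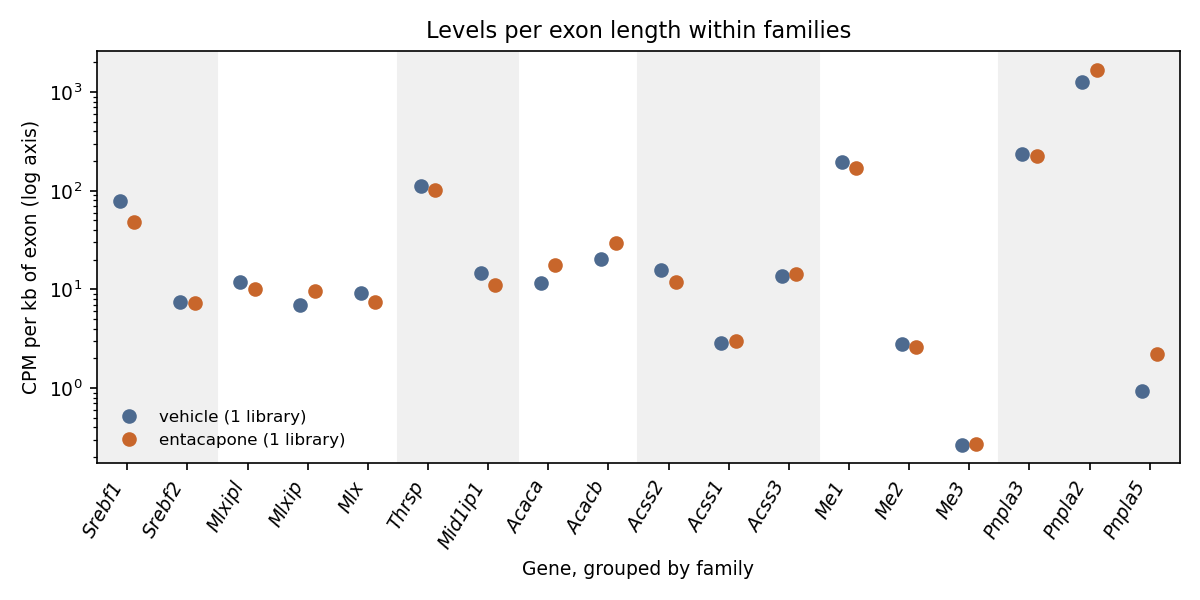
Level per kb of exon (CPM per kb, log axis) of each gene and its paralogs in both libraries, shaded by family. Srebf1, Me1 and Thrsp lie above their paralogs in both libraries, Mlxipl is close to Mlxip and Mlx, and Pnpla3 lies below Pnpla2.

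Per kb of exon, which allows genes of different length to be compared, the order in the vehicle library was Pnpla3 (234 CPM per kb), Fasn (209), Me1 (198), Thrsp (111), Srebf1 (79.4), Acly (58.0), Acacb (20.4), Acss2 (15.7), Mlxipl (11.99) and Acaca (11.7). In the entacapone library Pnpla3 (226), Fasn (219), Me1 (169) and Thrsp (103) kept the top 4 places. The Pnpla3 and Fasn levels there did not differ beyond counting error (ratio 1.03, 0.997 to 1.06), nor did those of Mlxipl and Acaca in the vehicle library (1.03, 0.953 to 1.11). Acaca (17.5) passed Acss2 (11.8) and Mlxipl (10.1) in the entacapone library. Among the 13361 genes, Pnpla3 ranked 161st and 176th per kb of exon and Acaca 3510th and 2484th, in the vehicle and the entacapone library. Lengths are those of merged exons in GENCODE M21. With the longest protein-coding transcript in their place, Acss2 stood at 54.5 and Acaca at 20.9 CPM per kb in the vehicle library, and Me1 (231) stood above Fasn (227). By that length Acaca was above Mlxipl (18.3) already in the vehicle library and below Acss2 in the entacapone library (31.4 against 41.0), so its change of place rests on the choice of length.

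The next steps of the pathway did not share 1 direction. Scd1, the main desaturase of fat, stood at 36573 against 24225 CPM, and Elovl6, which lengthens palmitate, was higher at 21.3 against 16.2 CPM (0.40, 0.14 to 0.66). Fads1 was highest of the 8 listed (0.76, 0.60 to 0.92). Scd2 (-0.61) and Acsl1 (-0.44), which activates fatty acids, were lower, and Elovl3 was lowest on 6 against 22 reads (-1.76, -3.36 to -0.42). Counting error was exceeded by 3 in each direction, and the median was 0.06. Genes that turn malonyl-CoA over or regulate the carboxylases were also split. Mlycd, the decarboxylase that destroys malonyl-CoA, was at 68.7 against 58.4 CPM (0.24, 0.10 to 0.37). Cpt1a, the enzyme that malonyl-CoA inhibits, was lowest (-0.72, -0.83 to -0.61), and the AMPK subunit Prkab2 highest (0.72, 0.55 to 0.89), while the catalytic subunits Prkaa1 and Prkaa2 were within counting error. Of the 11 measured of 12 listed, 4 were higher and 2 lower (median -0.01). The separate mitochondrial pathway, which supplies lipoic acid, had 4 of 6 measured genes with intervals above a ratio of 1 and 1 below it (median 0.21). There Acsf3, a malonyl-CoA synthetase, was highest (0.36, 0.20 to 0.53) and Mcat lowest (-0.28).

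**Figure D4:**
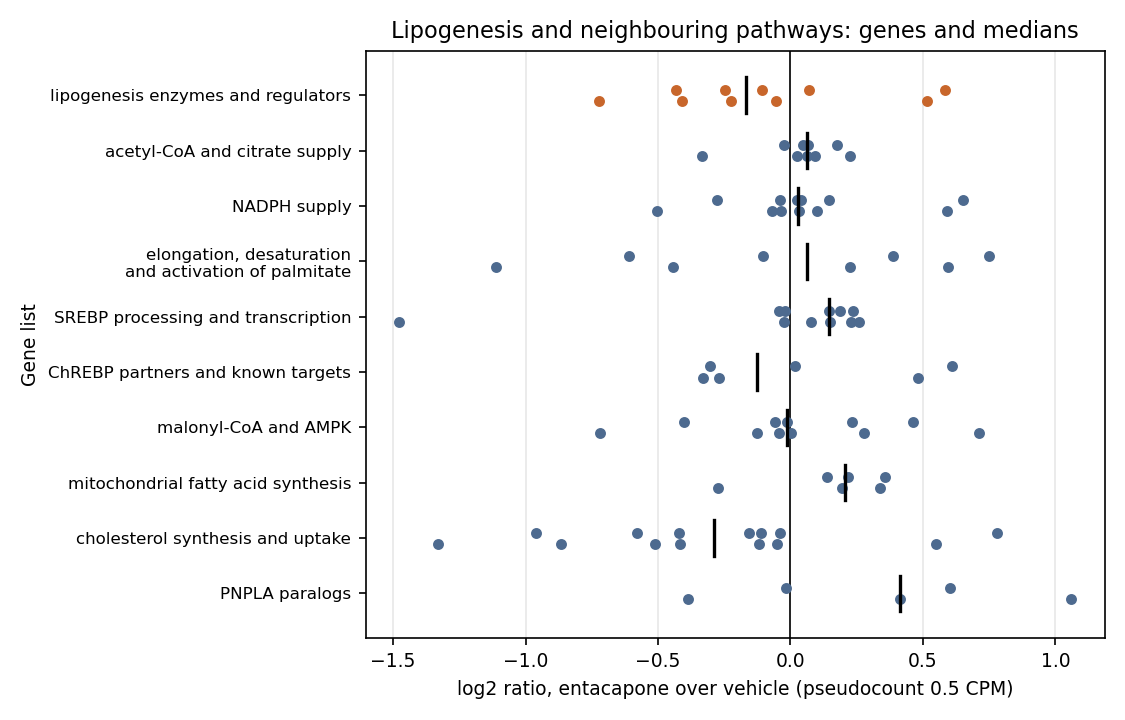
Log2 ratio (entacapone over vehicle, pseudocount of 0.5 CPM) of every measured gene of each list as points, with the list median as a black bar. Medians run from -0.29 (cholesterol synthesis and uptake) to 0.41 (PNPLA paralogs), and that of the 10 lipogenesis genes lies at -0.17.

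Adipocyte markers were at similar summed levels. The 9 adipocyte markers summed to 37320 CPM in the entacapone library against 35841 CPM, with a median log2 ratio of 0.03; 5 were higher and 4 lower. Among them Pparg, the adipocyte master regulator, was at -0.32 and Adipoq, the adiponectin gene, at 0.12. Other tissues differed between the libraries. All 11 hepatocyte markers were lower beyond counting error, with a summed level of 83.4 against 394 CPM, and none was at 0 reads. The liver also expresses the lipogenesis genes, and the part of liver RNA in the lower values of Srebf1, Acly, Acss2, Me1, Mlxipl and Thrsp was not tested. All 8 macrophage markers were lower as well, with a summed level of 613 against 1253 CPM, and their part was not tested either. Fibroblast and progenitor markers summed to 2101 against 3223 CPM. Col1a1 (999 against 1378 CPM) and Col1a2 (835 against 1445 CPM) made up most of that sum. Of these 6 markers 5 were lower, and Pdgfra was within counting error at 82.1 against 82.7 CPM. Red cell markers summed to 467 against 283 CPM and brown fat markers to 74.5 against 44.8 CPM. The brown fat sum was carried by Cidea and Cox8b, which were higher, while Elovl3 and the defining marker Ucp1 (8 against 45 reads) were lower. In bulk tissue, fewer cells of a type and less RNA per cell cannot be told apart.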

How the data were processed

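The authors deposited tables of raw read counts per Ensembl gene, 1 for the vehicle and 1 for the entacapone library, with no header. The submitters' processing notes name TopHat2 2.1.1, HTSeq 0.6.0 and mm10; of the annotation release and the counting mode the sources used here say nothing. Per the labels' protocols, libraries were made from bead-purified mRNA with a TruSeq RNA v2 kit. The libraries held 13620056 (vehicle) and 12979673 (entacapone) reads. Symbols, positions (GRCm38, the assembly of mm10) and exon lengths came from GENCODE M21, which matched 35449 of the 37315 genes; promoter windows came from RefSeq.

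CPM values were computed with TMM factors (edgeR 4.0.16; 1.01 and 0.986). Ratios carry Clopper-Pearson intervals (95%) from the share of each gene's reads that came from the entacapone library (SciPy 1.17.1). They were tested on simulated counts that held counting error only, so that test says nothing about spread between mice. Reads carry no molecular identifiers. The whole table was compared, limited to genes averaging 1 CPM or more. List medians used a pseudocount of 0.5 CPM; ratios of single genes used none. Genes named are the 10 members, their paralogs, 12 preset genes and the highest and lowest measured gene of each of 9 pathway lists; any other was chosen after its values were seen. Members, lists and limits were chosen with earlier results of these data known. Hsd17b8 matched no gene.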

Additional observations from a re-analysis of the deposited data

How the results depend on the processing

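No paired analysis was possible because each group held 1 library. Of 60 values of single members under 6 alternatives (total counts, DESeq2 1.42.0 size factors, upper-quartile factors, TMM without marker and mitochondrial genes, centring on adipocyte markers, and removal of a length and GC trend), 57 stayed within the counting interval. The other 3 were Fasn, whose log2 ratio ran from 0.03 to 0.09, and no member changed direction. Srebf1 ran from -0.76 to -0.71 and Acaca from 0.54 to 0.60. The count of members at least 1.5-fold higher was 0, but 1 with upper-quartile factors and 1 with the length and GC trend removed, which was Acaca. It was 2 at the lower limit (0.32 on the log2 scale), where 3 were lower; at a limit of 2-fold, 0 were lower. The count of members lower beyond counting error was 6, but 7 with total counts, DESeq2, adipocyte centring and the trend removed, where the interval of Pnpla3 lay below a ratio of 1. The count higher was 3 and the median ran from -0.21 to -0.15 (the mean was -0.10) under every alternative run. Among these was a minimum of 50 CPM, which was chosen after seeing the data. It could not change the values of the members, since even the lowest, Mlxipl, had 66.4 (vehicle) and 55.8 CPM (entacapone). The same holds for a minimum of 5 CPM and for no minimum, so these runs say nothing about robustness. The median of all genes moved by at most 0.04 on the log2 scale with scaling. Of 81 values of the pathway lists, 77 held; besides the SREBP list, the count of higher genes for acetyl-CoA and citrate supply was 1 with total counts and with DESeq2, and 4 with upper-quartile factors, against 2. Depth limits Mlxipl most among the members (714 to 917 reads, interval -0.39 to -0.11).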

Other observations

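Pklr, which encodes the pyruvate kinase of liver and red cells and is a known ChREBP target, was below the minimum of 1 CPM. It had 19 vehicle reads and 1 entacapone read, a log2 ratio of -4.14 (-9.51 to -1.48). Hepatocyte markers were lower in the entacapone library too, and the part of liver RNA in the Pklr value was not tested. Khk, a ketohexokinase and likewise a glucose-responsive liver gene, was within counting error at 12.8 against 12.7 CPM. Fgf21, a hormone gene that ChREBP is known to activate, had 11 vehicle and 4 entacapone reads, and its interval held a ratio of 1. Among the other adipocyte markers, leptin (Lep) was lowest at 4639 against 6209 CPM and Adrb3, the beta-3 adrenergic receptor gene, was highest at 207 against 106 CPM.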
